A study of Rattus norvegicus with 12 samples.

Results

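The left atrium and the left ventricle of unloaded rat hearts were compared on 6 of the series' 12 arrays, 3 with left atrial and 3 with left ventricular RNA from rats that had a sham operation. The members were every probe set of the deposited table that is not a manufacturer's control, 31042 of 31099. All arrays carry RNA of male Sprague Dawley rats killed 28 days after surgery, with 1 pool of 2 tissues on each array. The atrial pools were made from the appendage and the ventricular pools from the free wall, so other regions of either chamber are not covered. The other 6 arrays hold the same tissues after an aorto-caval shunt, an operation that joins the aorta to the vena cava and loads the heart with extra blood volume. They are used here as a second set of pools in which to look at the chamber difference. The sources do not say whether an atrial and a ventricular pool came from the same rats.

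Atrial and ventricular muscle contract with the same basic machinery but build parts of it from different genes. Each chamber has its own myosin light chains, small proteins that stabilise the myosin neck and tune its speed. Atrial myocytes store and release natriuretic peptides, hormones that make the kidney excrete salt, and carry a potassium channel opened by acetylcholine. Ventricular myocytes eject blood against arterial pressure and obtain most of their energy from fatty acids. The transcription factors Tbx5 and Nr2f2 (COUP-TFII) are known for atrial programmes, and Irx4 and Hey2 for ventricular ones. In tissue RNA, fewer cells of a type and less RNA per cell cannot be told apart, and this holds for every gene below.

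The deposited values are RMA values, a background-corrected and normalised probe set summary on the log2 scale, on which a difference of 1 is a doubling. A probe set was tested when its mean over the 12 arrays reached 4.01, the 40th percentile, which left 18625 probe sets and 10606 named genes, each gene read from its brightest tested probe set. A gene is called when the adjusted p of limma's test (Benjamini-Hochberg over all probe sets tested) is under 0.05. This rule called 8782 probe sets (47.2%) and 5319 genes, 50.2% of those tested, of which 2922 (27.6%) were higher in the atrium and 2397 (22.6%) higher in the ventricle. A stricter rule, limma's test that the difference is larger than 1.5-fold, called 1112 probe sets (5.97%) and 703 genes, 6.63%, with 439 (4.14%) higher in the atrium and 264 (2.49%) higher in the ventricle. These shares are the background for each count of list members that follows. The median difference over all genes was 0.02 and the median size of a difference was 0.24, with a median standard error of 0.09. The arrays of a chamber correlated at 0.994 to 0.996 across probe sets, and atrial with ventricular arrays at 0.94 to 0.947. The atrial and the ventricular sham arrays did not overlap for 6770 genes, 63.8% of those tested (34.7% with the atrium above and 29.1% with it below).

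The labelled chambers were set beside lists of their markers. These lists were chosen with earlier results of these data known, so the counts describe the chambers and are no independent check of the labels. Of 20 atrial myocyte genes tested, 15 were called higher in the atrium and 3 in the ventricle, 13 and 1 of them beyond 1.5-fold, with a median difference of 2.17. Of 20 ventricular myocyte genes, 18 were called higher in the ventricle and 0 in the atrium, 12 of the 18 beyond 1.5-fold, with a median of -1.64. Differences are atrium minus ventricle throughout. The 4 largest toward the atrium were those of Myl4, Sln, Mybphl and Myl7, and the 4 largest toward the ventricle those of Myl2, Myl3, Rpl3l and Penk. At least a doubling was seen in 414 genes toward the atrium and 221 toward the ventricle, and at least 16-fold in 16 and 9.

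Promoters of 7 chamber identity genes are printed first, as the sequences next to which cardiac transcription factors are known to act. Of 14 genes looked up, 11 had a listed promoter. In the stretch shown here, 6 of these held a match to a motif searched and 5 (Tbx5, Myh7, Rpl3l, Irx4 and Kcnip2) held none. The 7 were picked after the matches were seen, 5 with a match and, for contrast, Rpl3l and Irx4 without one, so they do not represent chamber genes at large. Each is the 150 bases upstream of the annotated start in RefSeq (GRCr8), 5′ to 3′ on the gene's strand. Capitals mark matches on either strand. The GATA motif searched was GATAA. The NKX motif was AAGTG. The T-box motif was AGGTGT and the TATA box was TATAAA. The MEF2 and CArG consensus motifs were searched too. Matches of different motifs may overlap, as the MEF2 and TATA matches of Fhl2 do. The first 3 belong to genes higher in the atrium and the others to genes higher in the ventricle. Nppa lies at chr5:163712034-163712183 (plus strand), Myl4 at chr10:89976000-89976149 (plus), Myl7 at chr14:84996625-84996774 (minus), Myl3 at chr8:119616944-119617093 (plus), Fhl2 at chr9:52954541-52954690 (minus, the first of 2 listed starts), Rpl3l at chr10:14258296-14258445 (plus) and Irx4 at chr1:31868090-31868239 (minus).
Nppa: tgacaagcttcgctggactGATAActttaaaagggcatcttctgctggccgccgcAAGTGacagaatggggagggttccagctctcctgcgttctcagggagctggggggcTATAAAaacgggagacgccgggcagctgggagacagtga
Myl4: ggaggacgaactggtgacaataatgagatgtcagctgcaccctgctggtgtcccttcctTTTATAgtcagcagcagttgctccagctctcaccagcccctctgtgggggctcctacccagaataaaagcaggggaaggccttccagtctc
Myl7: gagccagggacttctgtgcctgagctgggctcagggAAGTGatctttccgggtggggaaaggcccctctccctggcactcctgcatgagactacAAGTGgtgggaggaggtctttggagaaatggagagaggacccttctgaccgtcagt
Myl3: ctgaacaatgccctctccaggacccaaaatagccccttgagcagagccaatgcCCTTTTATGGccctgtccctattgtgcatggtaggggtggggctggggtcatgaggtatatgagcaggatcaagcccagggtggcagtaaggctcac
Fhl2: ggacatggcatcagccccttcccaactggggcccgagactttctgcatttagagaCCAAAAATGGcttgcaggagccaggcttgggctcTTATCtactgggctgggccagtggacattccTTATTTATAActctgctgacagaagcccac
Rpl3l: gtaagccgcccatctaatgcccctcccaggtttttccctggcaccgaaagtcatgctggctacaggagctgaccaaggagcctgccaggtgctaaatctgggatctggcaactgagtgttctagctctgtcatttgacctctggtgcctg
Irx4: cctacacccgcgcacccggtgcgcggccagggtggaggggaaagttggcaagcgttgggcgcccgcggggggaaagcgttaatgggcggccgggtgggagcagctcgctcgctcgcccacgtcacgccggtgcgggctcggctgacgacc

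In the atrial natriuretic peptide promoter, a GATA match began 131 bases, an NKX match 95 bases and a TATA match 39 bases upstream of the start. Myl7 had NKX matches only, at 114 and 56 bases within the stretch printed. Myl3 had 1 CArG match 97 bases upstream, and Fhl2 had a MEF2 match at 30, a CArG match at 95 and a GATA match at 61 bases. Such short motifs are common: within 250 bases upstream, NKX matches stood in 37.6% and GATA matches in 14.5% of the 8850 tested genes with a listed promoter. Among 330 atrial genes beyond 1.5-fold the shares were 37.3% for NKX, 14.5% for GATA, 10.0% for T-box, 7.58% for TATA, 3.03% for MEF2 and 1.21% for CArG. Among 207 ventricular genes they were 36.2%, 16.4%, 7.73%, 11.1%, 2.9% and 1.45% in the same order. The remaining shares over all tested genes were 9.41% for T-box, 6.61% for TATA, 1.54% for MEF2 and 1.28% for CArG. In the promoter table as a whole, with 27457 genes, the shares were 40.6% for NKX, 23.2% for GATA, 11.4% for T-box, 13.1% for TATA, 3.07% for MEF2 and 1.5% for CArG. A match describes letters in a window and is not a binding site. Myl2, Sln and Penk are named without a promoter.

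Myosin light chain genes were among the largest differences in both directions. Myl4, the atrial essential light chain, read 13.40, 13.29 and 13.39 on the 3 atrial arrays and 5.11, 5.28 and 5.52 on the 3 ventricular arrays. The difference was 8.06 (SE 0.13, adjusted p = 5.45e-12), 267-fold. Myl7, the atrial regulatory light chain, read 13.76, 13.79 and 13.85 in the atrium against 6.25, 7.74 and 7.23 in the ventricle. Its atrial arrays were close together and its ventricular arrays were spread over more than 1 unit, all far below the atrial ones. The difference was 6.72 (SE 0.52, adjusted p = 9.56e-07).

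The ventricular pair mirrored it. Myl2, the ventricular regulatory light chain, read 4.90, 4.16 and 4.50 in the atrium and 13.61, 13.62 and 13.64 in the ventricle. This was the widest chamber difference of any gene tested, -9.10 (SE 0.19, adjusted p = 3.64e-11). A second, dimmer Myl2 probe set gave -2.66 (SE 0.30, adjusted p = 2.19e-05), so the direction was shared but the size depended on the probe set. Myl3, the ventricular essential light chain, read 7.88, 7.01 and 7.82 in the atrium and 13.30, 13.26 and 13.32 in the ventricle, a difference of -5.72 (SE 0.21, adjusted p = 1.95e-09). The lowest atrial value of both genes came from the same array, that of replicate 2.

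**Figure D1:**
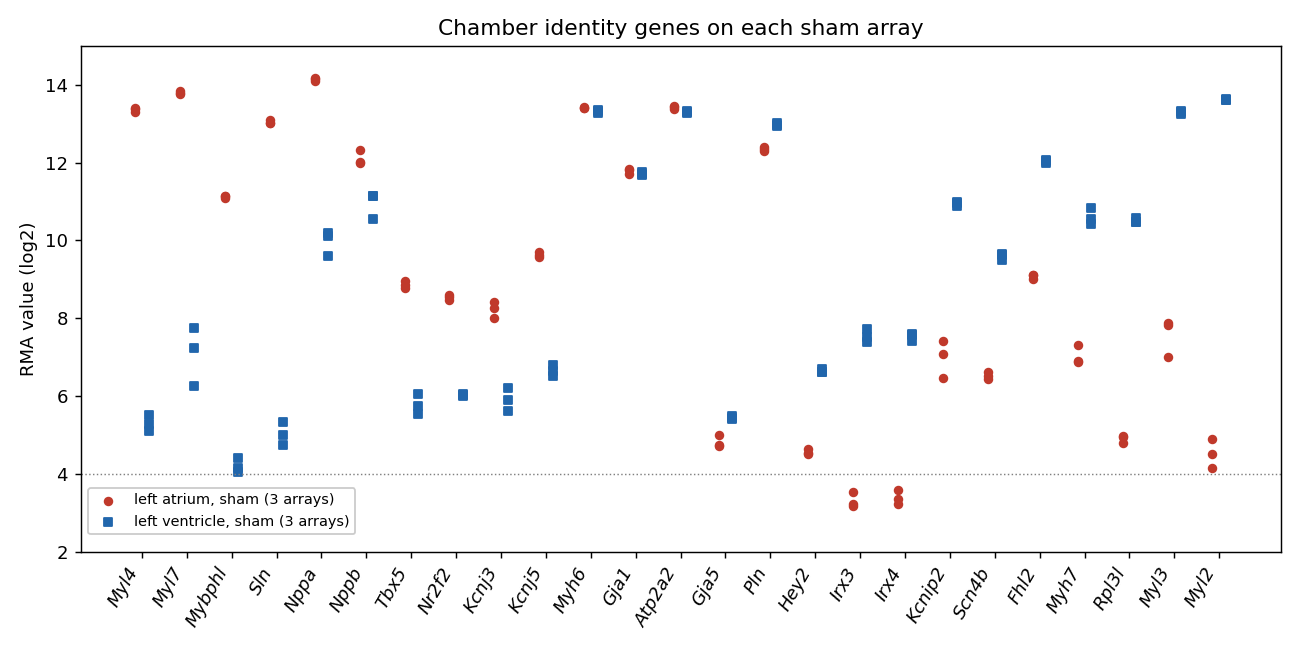
RMA values (log2, y axis) of 25 chamber identity genes on each of the 3 left atrial (circles) and 3 left ventricular (squares) sham arrays; the dotted line is the filter value of 4.01. Myl4 lies above 13 in the atrium and below 6 in the ventricle, Myl2 the other way round, and Myh6, Gja1 and Atp2a2 lie nearly level.

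Myosin heavy chains differed in 1 of the 2 cardiac genes. Myh7, the slow beta heavy chain, read 7.31, 6.91 and 6.87 in the atrium and 10.84, 10.43 and 10.55 in the ventricle, a difference of -3.58 (SE 0.18, adjusted p = 2.7e-08), and its second probe set gave -3.80. Myh6, the fast alpha heavy chain that dominates adult rodent hearts, read 13.41, 13.42 and 13.41 in the atrium and 13.28, 13.33 and 13.36 in the ventricle. These arrays did not overlap, but the difference of 0.09 (SE 0.06, adjusted p = 0.214) was not called. Its second probe set gave 0.21 (SE 0.08, adjusted p = 0.0519). Values of this gene lie near 14.29, the highest value in the table.

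The sarcomere list as a whole was split. Of 29 genes tested, 11 were called higher in the atrium and 7 in the ventricle, 6 and 5 beyond 1.5-fold, and the median was -0.04. These counts include the myosin light and heavy chains above. Mybphl, a myosin binding protein related to the C-proteins, read 11.15, 11.08 and 11.14 in the atrium and 4.16, 4.41 and 4.05 in the ventricle, a difference of 6.92 (SE 0.20, adjusted p = 3.75e-10). Neb (2.96), which encodes the thin filament ruler nebulin, Myl1 (1.99), a skeletal light chain gene, and Myl9 (1.65), a smooth muscle light chain gene, were also called beyond 1.5-fold in the atrium. Acta1 (-2.67), skeletal alpha-actin, and Lmod3 (-2.32), a leiomodin that nucleates actin filaments, were higher in the ventricle. The troponin genes Tnnt2 and Tnni3 (each -0.09) and the binding protein gene Mybpc3 (-0.07) were not called, with adjusted p of 0.176, 0.274 and 0.447.

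At the Z-disc, the anchor of the thin filaments, 9 of 32 genes were called higher in the atrium and 8 in the ventricle, 3 and 2 beyond 1.5-fold, with a median of 0.02. Fhl2, a LIM-domain adaptor protein, read 9.11, 9.11 and 9.01 in the atrium and 12.04, 11.98 and 12.06 in the ventricle, a difference of -2.95 (SE 0.07, adjusted p = 6.39e-11). Ankrd23, an ankyrin repeat protein of the titin complex, differed by -2.33 (SE 0.22). Its atrial mean of 3.79 was under the filter value and it passed through its ventricular arrays, which fixes its direction. The atrial genes were Pdlim3 (1.82), Smpx (0.83) and Csrp3 (0.81), of which Csrp3 encodes the muscle LIM protein.

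A ribosomal protein pair followed the chambers too. Rpl3l, the striated muscle paralog of the large subunit protein Rpl3, read 4.94, 4.79 and 4.97 in the atrium and 10.47, 10.47 and 10.57 in the ventricle. The difference was -5.61 (SE 0.13, adjusted p = 6.39e-11). Rpl3 itself read 11.49, 11.55 and 11.60 in the atrium and 9.98, 10.05 and 10.05 in the ventricle, a difference of 1.52 (SE 0.06, adjusted p = 3e-09). Both genes had non-overlapping chambers, in opposite directions, and the second Rpl3 probe set gave 0.85. Among all 34 cytosolic ribosomal protein genes tested, 28 were called higher in the atrium and 1, Rpl3l, in the ventricle, but the others were small: the list median was 0.24 and Rpl3 was the only one beyond 1.5-fold in the atrium. The list's median was 0.24 with further quantile normalisation and 0.26 with cyclic loess.

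Of 3 RNA quality controls, 1 separated the chambers. The 3′ minus 5′ value of the beta-actin control probe sets, which grows when RNA or cRNA is shorter, was 1.19 to 1.26 on the atrial and 0.96 to 1.01 on the ventricular arrays. For the hexokinase control it was 1.01 to 1.10 against 0.84 to 1.02, and for GAPDH 0.34 to 0.37 against 0.35 to 0.38, and both of these overlapped. These controls read rat transcripts, and their part in the chamber differences was not tested.

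Calcium handling was led by sarcolipin. Sln, a small peptide that slows the sarcoplasmic calcium pump, read 13.03, 13.02 and 13.09 in the atrium and 5.0, 4.74 and 5.33 in the ventricle, a difference of 8.02 (SE 0.18, adjusted p = 6.39e-11). Its ventricular relative Pln, phospholamban, was present in both chambers and read 12.40, 12.30 and 12.36 against 12.98, 13.02 and 12.94. That difference of -0.63 (SE 0.06, adjusted p = 4.72e-06) was called but not beyond 1.5-fold, and a second Pln probe set gave -0.74. Atp2a2, the pump itself (SERCA2), read 13.39, 13.45 and 13.44 against 13.27, 13.31 and 13.32. Its difference of 0.13 (SE 0.05, adjusted p = 0.0644) was not called. Dimmer Atp2a2 probe sets gave 0.25 (adjusted p = 0.0059), 0.57 (adjusted p = 0.012) and 0.08 (adjusted p = 0.569, with overlapping arrays). The gene was called under 6 other settings, among them cyclic loess (0.21, adjusted p = 0.00856) and array weights (0.13, adjusted p = 0.0285). Of these settings, 1 averaged the gene's probe sets and the others read the brightest, so the value of 0.13 lies at the threshold.

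Of all 35 calcium genes, 17 were called higher in the atrium and 8 in the ventricle, 5 and 2 beyond 1.5-fold, with a median of 0.23. Cacna1g, a T-type calcium channel gene, read 6.96, 7.0 and 6.92 in the atrium and 4.99, 4.59 and 4.98 in the ventricle, a difference of 2.11 (SE 0.13). Cacna1c, the pore of the L-type channel that triggers contraction, read 7.23, 7.22 and 7.30 against 8.29, 8.30 and 8.43, a difference of -1.09 (SE 0.07, adjusted p = 2.07e-07). Neither gene's chambers overlapped. The other T-type gene tested, Cacna1h, differed by 0.08 (SE 0.07, adjusted p = 0.379) in its brightest probe set, and the arrays overlapped. With its probe sets averaged, Cacna1h was called higher in the atrium, at 0.52 (adjusted p = 3.76e-05). The inositol trisphosphate receptor gene Itpr1 (1.34), the phosphatase inhibitor gene Ppp1r1a (1.61) and the channel subunit gene Cacna2d3 (1.03) were higher in the atrium beyond 1.5-fold. Ryr2, the calcium release channel, differed by 0.23 (SE 0.07, adjusted p = 0.0136), and Jph2, which holds the release units against the T-tubules, by -0.57 (SE 0.08, adjusted p = 0.000175).

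Asph, which yields the calcium store protein junctin and an unrelated hydroxylase from 1 locus, was read by 4 called probe sets that split by direction, at -1.17, -1.14, 0.68 and 1.53. List counts here read the gene from its brightest probe set, at -1.17. Averaged over its probe sets, Asph differed by -0.02 (adjusted p = 0.79) and was not called. It was the only 1 of 125 genes with several probe sets beyond 1.5-fold whose probe sets were called in both directions. By the plain rule, 71 of 986 genes with several called probe sets (7.2%) had calls in both directions. Wide gaps between probe sets were also seen for Tmem163 (3.63 and -0.24), Cdh11 (1.80 and -0.41), Gabbr1 (1.73, 0.51 and -0.42) and Zfp503 (1.67 and -0.38).

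Potassium channel genes gave both chambers a marker. Kcnj3 and Kcnj5 encode the 2 subunits of the acetylcholine-activated channel GIRK1 and GIRK4. Kcnj3 read 8.02, 8.26 and 8.41 in the atrium and 5.62, 6.22 and 5.90 in the ventricle, a difference of 2.32 (SE 0.17, adjusted p = 7.2e-07). Kcnj5 read 9.58, 9.71 and 9.62 against 6.65, 6.81 and 6.52, a difference of 2.98 (SE 0.10, adjusted p = 7.85e-10). Both subunits were higher on every atrial array than on any ventricular array. A second probe set of each gene gave 2.35 and 2.15, and a further one of Kcnj3 gave -0.13 (adjusted p = 0.427).

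Among single genes of muscarinic signalling, chosen after their values were seen, 3 were called higher in the atrium. The muscarinic receptor gene Chrm2 differed by 0.43 (SE 0.09, adjusted p = 0.00162), the G protein subunit gene Gnao1 by 1.94 (SE 0.14) and Rgs6, a brake on G proteins, by 1.22 (SE 0.09). Kcnip2 encodes KChIP2, the subunit that sets the transient outward current. It read 7.41, 6.46 and 7.07 in the atrium and 10.98, 10.89 and 10.97 in the ventricle, a difference of -3.97 (SE 0.20, adjusted p = 3.6e-08). A second probe set of the gene gave -3.86.

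In all, 10 of 25 potassium channel genes were called higher in the atrium and 7 in the ventricle, 4 and 1 beyond 1.5-fold, and the median was 0.08. The 2-pore channel gene Kcnk2 (1.67) and the delayed rectifier gene Kcna2 (1.41) made up the 4 with Kcnj3 and Kcnj5. Kcna5, the gene of the ultrarapid delayed rectifier, read 4.94, 5.67 and 5.32 in the atrium and 4.64, 5.07 and 4.60 in the ventricle. These arrays overlapped, and the difference of 0.54 (SE 0.17, adjusted p = 0.0191) lost the call without atrial array 2 (0.36), ventricular array 1 (0.47) or ventricular array 3 (0.45). Kcnj2 was under the filter value and was not tested.

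Among 19 sodium channel, pacemaker channel, pump and connexin genes, 4 were called higher in the atrium and 5 in the ventricle, 1 and 2 beyond 1.5-fold, with a median of 0.03. Scn4b, the beta-4 sodium channel subunit, read 6.62, 6.45 and 6.52 in the atrium and 9.65, 9.62 and 9.49 in the ventricle, a difference of -3.06 (SE 0.16, adjusted p = 4.29e-08). The pacemaker channel genes Hcn2 (-1.34, SE 0.09) and Hcn4 (-0.53, SE 0.09) were both higher in the ventricle. Fgf12 (1.30, SE 0.09), a modulator of sodium channels, was the atrial member beyond 1.5-fold.

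Gap junction genes differed little or toward the ventricle, except Gja3. Gja5, a connexin gene known for atrial muscle, read 4.72, 5.01 and 4.74 in the atrium and 5.45, 5.42 and 5.48 in the ventricle. The ventricular arrays were all higher, by 0.63 on the log2 scale (atrium minus ventricle -0.63, SE 0.09, adjusted p = 0.00018). Gja1, the main connexin gene of working muscle, read 11.81, 11.71 and 11.85 against 11.68, 11.70 and 11.75, with a difference of 0.08 (SE 0.07, adjusted p = 0.373), and a dimmer probe set gave -0.41 (adjusted p = 0.0118). The connexin gene Gja3 was called higher in the atrium (0.91, SE 0.11, adjusted p = 5.36e-05).

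Of 19 sinus node and conduction genes, 9 were called higher in the atrium and 5 in the ventricle, 6 and 1 beyond 1.5-fold, with a median of 0.41. The atrial members included Vsnl1 (4.94), a neuronal calcium sensor gene, Etv1 (2.63) and Cacna1g, and the ventricular ones Irx3, Hcn4 and Gja5. The list shares members with other lists here, among them Nppa, Etv1, Tbx18, Irx3, Gja5, Hcn4, Cacna1g and Rgs6, so its counts are not independent of theirs.

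Nppa and Nppb were high in both chambers and higher in the atrium, whereas Nppc, the C-type peptide gene, was under the filter value in both and was not tested. Nppa, atrial natriuretic peptide, read 14.18, 14.11 and 14.14 in the atrium and 10.11, 9.61 and 10.19 in the ventricle, a difference of 4.18 (SE 0.28, adjusted p = 3.23e-07), 18.1-fold. Nppb, B-type natriuretic peptide, read 12.32, 11.98 and 12.02 against 11.14, 10.54 and 11.14, a difference of 1.17 (SE 0.15, adjusted p = 7.74e-05). Neither gene's chambers overlapped, and ventricular array 2 was the lowest for both. The atrial Nppa values lie near the top of the table's range.

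Of 19 genes for these peptides, their receptors and the secretory granule, 10 were called higher in the atrium and 5 in the ventricle, 5 and 2 beyond 1.5-fold, with a median of 0.23. Pam, the amidating enzyme that is a main membrane protein of atrial granules, read 12.89, 12.83 and 12.85 against 11.61, 11.60 and 11.57, a difference of 1.26 (SE 0.07, adjusted p = 1.11e-07). The clearance receptor gene Npr3 (2.19) and adrenomedullin, Adm (1.11), were atrial, and the receptor gene Npr1 was higher in the ventricle by a small margin (-0.31, SE 0.07, adjusted p = 0.003). Penk, the precursor of the enkephalin opioid peptides, read 5.06, 5.51 and 4.96 in the atrium and 10.76, 10.40 and 10.54 in the ventricle. At -5.39 (SE 0.20, adjusted p = 2.27e-09) it was the fourth largest ventricular difference. Pcsk6, a convertase gene, was ventricular too (-1.24, SE 0.09).

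Hormone and transmitter receptor genes gave 9 of 25 called higher in the atrium and 8 in the ventricle, 4 and 1 beyond 1.5-fold, with a median of 0.13. Besides Gnao1 and Rgs6, the atrial members beyond 1.5-fold were Rgs2 (1.86, SE 0.16) and Ramp1 (1.54, SE 0.22), a partner of the calcitonin gene-related peptide receptor. The ventricular member was the alpha-1D adrenergic receptor gene Adra1d (-1.48, SE 0.09).

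Several transcription factors of chamber identity differed by more than 4-fold. Tbx5, a T-box factor, read 8.86, 8.78 and 8.97 in the atrium and 5.54, 5.74 and 6.06 in the ventricle, a difference of 3.09 (SE 0.24, adjusted p = 1.11e-06). Nr2f2 read 8.60, 8.54 and 8.47 against 6.0, 6.03 and 6.05, a difference of 2.51 (SE 0.08, adjusted p = 5.56e-10). Etv1, an ETS factor of fast-conducting atrial muscle, differed by 2.63 (SE 0.12). For all of these the highest ventricular array lay more than 2 units below the lowest atrial array.

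Irx4 and Irx3 had the largest ventricular differences among the transcription factors. Irx4 read 3.36, 3.22 and 3.58 in the atrium and 7.56, 7.41 and 7.60 in the ventricle, a difference of -4.14 (SE 0.10, adjusted p = 8.2e-11). Irx3, known for the ventricular conduction system, read 3.53, 3.22 and 3.17 against 7.51, 7.72 and 7.40, a difference of -4.24 (SE 0.14, adjusted p = 1.28e-09). Irx2 differed by -1.91 (SE 0.12), Irx1 by -0.95 (SE 0.14) and Irx5 by -0.39 (SE 0.08, adjusted p = 0.00245). All 5 of these genes had atrial means under 4.01 and passed the filter through their ventricular arrays, so their shared direction is a description and no support for one.

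**Figure D2:**
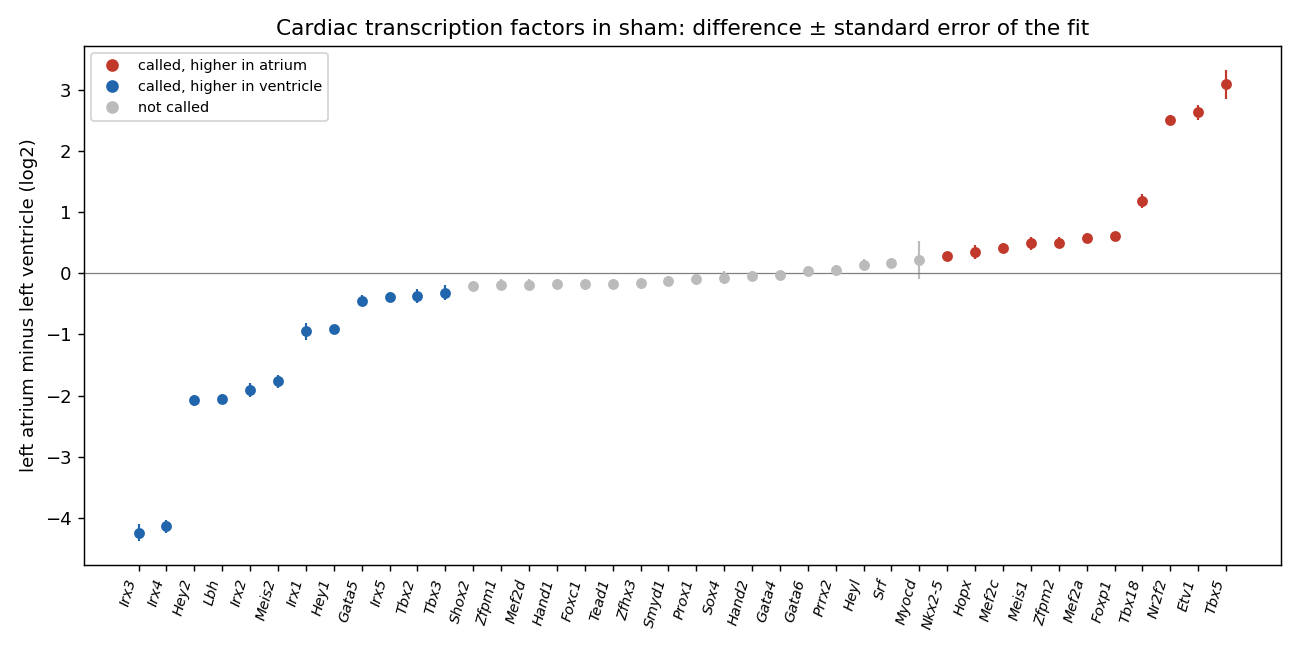
Difference between left atrium and left ventricle in sham (log2, y axis) for the 40 cardiac transcription factor genes tested, ordered by size; points are fitted differences and bars the standard error. Irx3 and Irx4 lie below -4, and Tbx5, Etv1 and Nr2f2 above 2.5, while Gata4 and Gata6 lie at 0.

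Hey2, a Notch target known as a ventricular repressor of atrial genes, read 4.52, 4.65 and 4.55 in the atrium and 6.61, 6.63 and 6.70 in the ventricle, a difference of -2.08 (SE 0.09, adjusted p = 9.63e-09). Its relative Hey1, known for developing atria, was also higher in the ventricle, at 6.26, 6.09 and 6.18 against 7.14, 7.08 and 7.09 (-0.92, SE 0.08, adjusted p = 2.17e-06). The cofactor gene Lbh (-2.05, SE 0.07) and the homeobox gene Meis2 (-1.77, SE 0.10) were ventricular. The epicardial and sinus horn factor gene Tbx18 was higher in the atrium (1.18, SE 0.11). Of factors known from all cardiac muscle, Gata4 (-0.03, SE 0.07, adjusted p = 0.758) and Gata6 (0.04, SE 0.07, adjusted p = 0.634) were not called. Nkx2-5 (0.28, SE 0.07, adjusted p = 0.00584), Mef2a (0.58, SE 0.07, adjusted p = 2.33e-05) and Mef2c (0.42, SE 0.07, adjusted p = 0.000333) were called higher in the atrium. The sign of the Gata6 value turned under quantile and cyclic loess scaling. With its probe sets averaged, Gata6 was called higher in the ventricle (-0.18, adjusted p = 0.0332). Over the 40 genes of the list, 11 were called higher in the atrium and 12 in the ventricle, 4 and 7 beyond 1.5-fold, with a median of -0.11.

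Most genes of fatty acid use were called higher in the ventricle. Of 45 fatty acid uptake and oxidation genes tested, 37 were called higher in the ventricle and 3 in the atrium, 18 and 0 beyond 1.5-fold, and the median was -0.64. Acadm, medium-chain acyl-CoA dehydrogenase, read 10.36, 10.24 and 10.39 in the atrium and 12.10, 12.03 and 12.17 in the ventricle, a difference of -1.77 (SE 0.10, adjusted p = 6.79e-08). The thiolase gene Acaa2 differed by -1.93 (SE 0.19), the carnitine transferase gene Cpt2 by -1.39 (SE 0.07) and Cd36, the sarcolemmal fatty acid carrier, by -1.22 (SE 0.08). Bdh1, which starts the use of the ketone body beta-hydroxybutyrate, read 5.62, 5.56 and 5.71 against 8.36, 8.65 and 8.31, a difference of -2.81 (SE 0.18, adjusted p = 2.43e-07). Acsl6, an acyl-CoA synthetase gene, had the largest difference of the list (-2.98, SE 0.15).

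The genes beyond 1.5-fold spanned uptake (Cd36), the carnitine shuttle (Cpt2 and Slc25a20, -1.18) and the dehydrogenases and thiolases of beta-oxidation. The regulator genes Ppara (-0.67), Ppargc1a (-0.61) and Esrra (-0.69), which switch on this pathway, were called higher in the ventricle but not beyond 1.5-fold. The liver-type carnitine transferase gene Cpt1a (0.32), Acsl3 (0.35) and the uncoupling protein gene Ucp2 (0.54) were the called exceptions. The call of Cpt1a was lost without atrial array 2 (0.28), atrial array 3 (0.28) or ventricular array 1 (0.26).

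**Figure D3:**
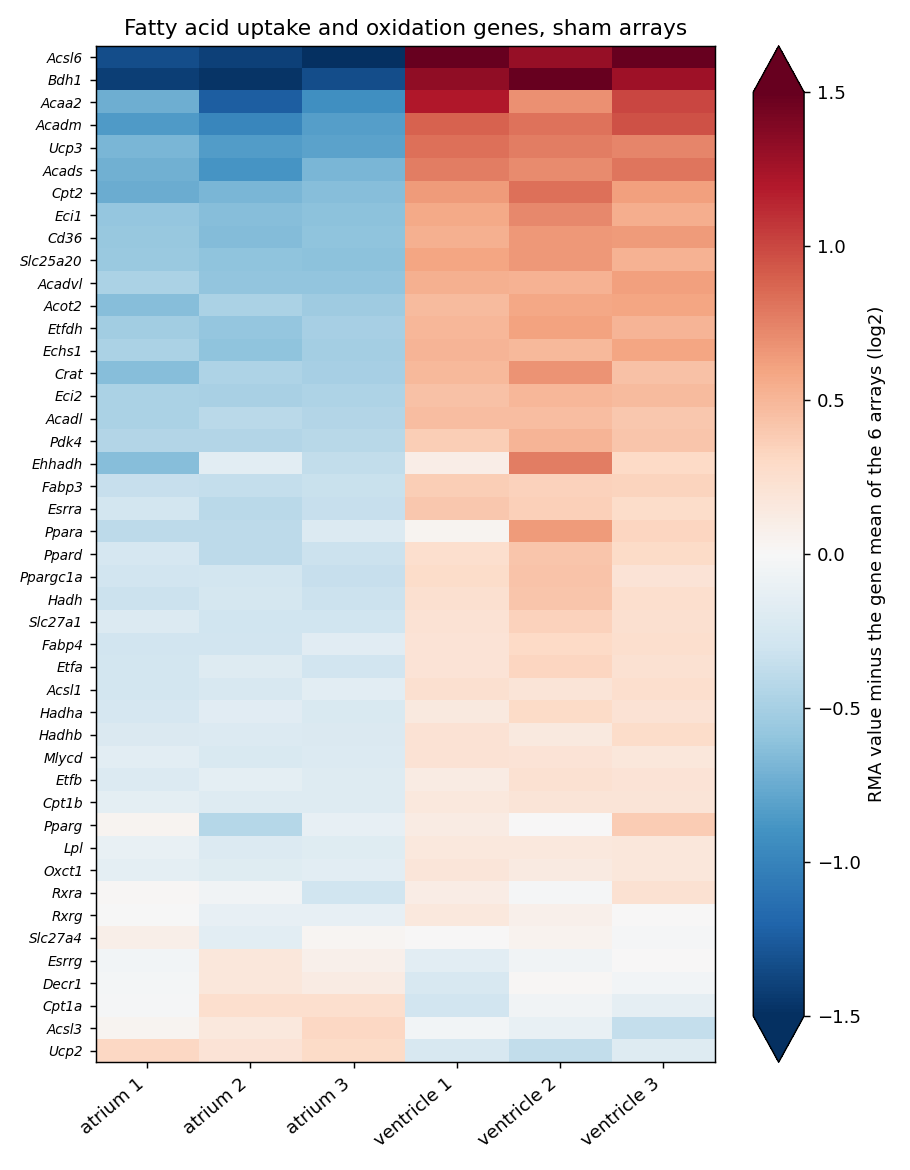
RMA values of the 45 fatty acid uptake and oxidation genes tested (rows) on the 6 sham arrays (columns), each minus the mean of its gene over the 6 arrays (log2, colour, cut at 1.5 each way). Atrial columns are below and ventricular columns above the gene mean for most rows, from Acsl6 at the top to the atrial exceptions such as Ucp2 at the bottom.

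The citric acid cycle and respiratory chain followed with many small differences: 50 of 62 genes were called higher in the ventricle and 1 in the atrium, but 1 and 0 were beyond 1.5-fold, and the median was -0.30. The 1 was Cox7a1, the muscle isoform of a cytochrome oxidase subunit, which read 6.93, 6.98 and 6.99 against 9.58, 9.52 and 9.37 (-2.52, SE 0.16, adjusted p = 1.55e-07). Citrate synthase, Cs, differed by -0.64 (SE 0.06, adjusted p = 2.85e-06). Of 33 glycolysis and glycogen genes, 19 were called higher in the ventricle and 6 in the atrium, 4 and 1 beyond 1.5-fold, with a median of -0.22. The ventricular ones beyond 1.5-fold were the glucose carrier gene Slc2a1 (-1.3), the lactate carrier gene Slc16a1 (-1.44), Pdk1 (-1.37) and Pfkfb2 (-1.39). The platelet-type phosphofructokinase gene Pfkp (1.24, SE 0.10) was the atrial one.

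**Figure D4:**
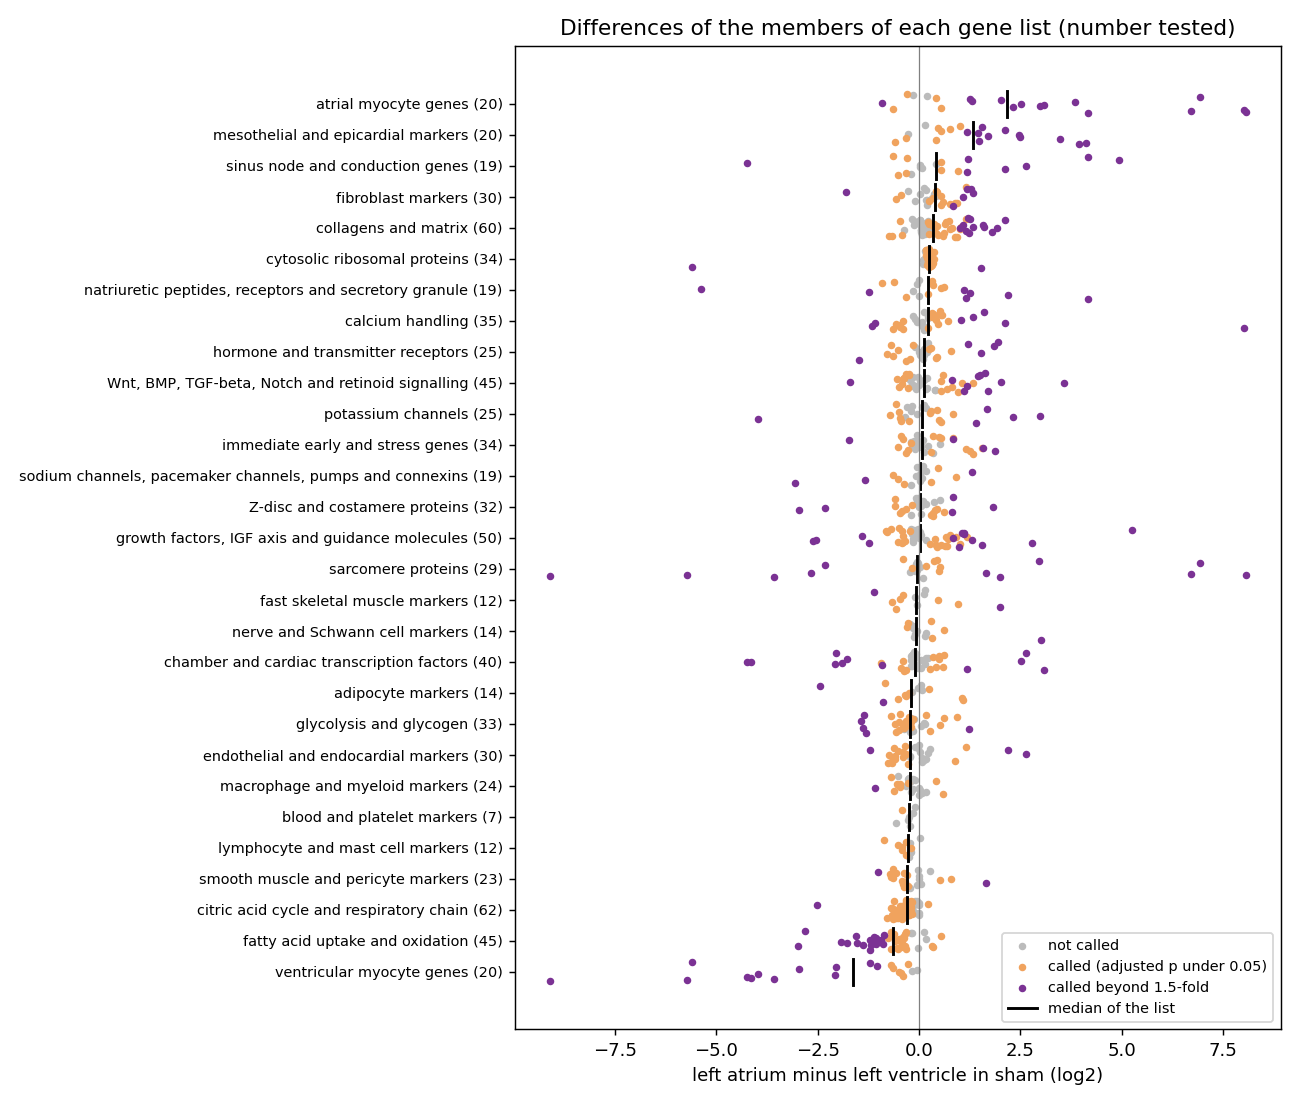
Difference between left atrium and left ventricle in sham (log2, x axis) for every tested member of 29 gene lists (rows, number tested in brackets); points are genes coloured by call and black bars are list medians. Medians run from -1.64 for ventricular myocyte genes and -0.64 for fatty acid genes to 1.32 for mesothelial markers and 2.17 for atrial myocyte genes.

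Markers of cells other than myocytes also differed between the chambers. Mesothelial and epicardial markers, the genes of the serous layer that covers the heart, were the most shifted after the myocyte lists: 16 of 20 were called higher in the atrium and 2 in the ventricle, 11 and 0 beyond 1.5-fold, with a median of 1.32. Msln, mesothelin, read 8.0, 8.23 and 7.73 in the atrium and 4.16, 3.89 and 4.06 in the ventricle (3.95, SE 0.17, adjusted p = 6.55e-09). Upk1b, a uroplakin gene, read 7.20, 7.58 and 7.32 against 3.35, 3.01 and 3.34 (4.13, SE 0.25, adjusted p = 1.35e-07), and the keratin gene Krt19 differed by 3.48 (SE 0.13). Upk1b and Krt19 had ventricular means under 4.01 (3.23 and 3.28) and passed the filter through their atrial arrays. That fixes their direction, so their values are a description, and the counts of this list include such genes. Wt1, an epicardial factor gene, went the other way (-0.60, SE 0.10, adjusted p = 0.000359). The mean level of the 20 markers was 6.47 to 6.53 on the atrial and 5.05 to 5.09 on the ventricular arrays. The part of this layer in the atrial genes was not tested.

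More matrix and fibroblast genes were called in the atrium than in the ventricle, and many were not called. Of 60 collagen and matrix genes, 32 were called higher in the atrium and 4 in the ventricle, 12 and 0 beyond 1.5-fold, with a median of 0.34. Fn1, fibronectin, read 9.72, 9.57 and 9.60 against 7.80, 7.84 and 7.84, a difference of 1.80 (SE 0.10, adjusted p = 4.39e-08). The fibrillar collagen gene Col1a1 differed by 0.88 (SE 0.13, adjusted p = 0.000186), Eln, elastin, by 1.17 (SE 0.15) and the proteoglycan gene Fmod by 1.92 (SE 0.24). The 4 ventricular genes included the basement membrane collagens Col4a1 (-0.66, SE 0.10) and Col4a2 (-0.73, SE 0.07). Of 30 fibroblast markers, 16 were called higher in the atrium and 3 in the ventricle, 5 and 1 beyond 1.5-fold, with a median of 0.39. The ventricular one was Ly6c (-1.81), and Pdgfra, a receptor that marks fibroblasts, differed by 0.85 (SE 0.07, adjusted p = 2.29e-06). The summed fibroblast level was 8.36 to 8.38 on the atrial and 7.93 to 8.03 on the ventricular arrays, as a mean over the 30 genes.

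Vessel markers were mixed. Of 30 endothelial and endocardial markers, 14 were called higher in the ventricle and 4 in the atrium, 1 and 2 beyond 1.5-fold, with a median of -0.23. The mean level of the 30 was 7.65 to 7.69 on the atrial and 7.68 to 7.71 on the ventricular arrays. The ventricular one was Cd36, which myocytes also express. The vascular receptor gene Kdr differed by -0.76 (SE 0.08, adjusted p = 1.32e-05), whereas Plvap, found in fenestrated and venous endothelium, read 7.51, 7.71 and 7.53 in the atrium and 4.86, 4.91 and 5.03 in the ventricle (2.65, SE 0.14). The other atrial members were Npr3, an endocardial marker, Lyve1 (1.15), a lymphatic marker, and Vwf (0.89). Smooth muscle and pericyte markers gave 13 of 23 in the ventricle and 3 in the atrium, 1 and 1 beyond 1.5-fold, with a median of -0.29. Mcam was the ventricular one (-1.01, SE 0.11) and Myl9 the atrial one.

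Immune, blood, fat, nerve and skeletal muscle lists had few members beyond 1.5-fold. Macrophage and myeloid markers gave 2 of 24 higher in the atrium and 8 in the ventricle, 0 and 1 beyond 1.5-fold (median -0.23), the 1 being Cd74 (-1.08, SE 0.09), the chaperone of antigen presentation. Lymphocyte and mast cell markers gave 0 and 7 of 12, with 0 beyond 1.5-fold (median -0.28), and blood and platelet markers 0 and 1 of 7 (median -0.24). Adipocyte markers gave 3 and 7 of 14, 0 and 2 beyond 1.5-fold (median -0.21), the 2 being Gpd1 (-2.44, SE 0.14), a glycerol phosphate enzyme that myocytes also use, and the lipid droplet gene Plin4 (-0.88, SE 0.07). The adipokine gene Cfd (1.05, SE 0.26, adjusted p = 0.00544) and the lipid droplet gene Cidea (1.08, SE 0.24, adjusted p = 0.00349) were called higher in the atrium. The adipocyte genes under the filter were untested and went both ways. Adipoq (4.05 against 3.21), Plin1 (3.85 against 3.26), Cidec (3.74 against 3.07), Pck1 (4.07 against 3.07) and Scd (3.79 against 3.40) had higher atrial means. Ucp1 (3.26 against 3.60), Slc7a10 (3.09 against 3.30), Adrb3 (2.88 against 3.03) and Lep (3.52 against 3.54) had lower ones. All of these lie near the low end of the table. Nerve and Schwann cell markers gave 4 and 2 of 14, 1 and 0 beyond 1.5-fold (median -0.07). The 1 was Mbp, myelin basic protein, at 7.97, 8.06 and 8.19 against 5.01, 5.24 and 4.97 (3.0, SE 0.14), with 2 further probe sets at 1.56 and 1.05. Fast skeletal muscle markers gave 3 and 5 of 12, 1 and 1 beyond 1.5-fold (median -0.07), which were Myl1 and Chrna1 (-1.10), a subunit of the muscle acetylcholine receptor.

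Developmental signalling genes leaned to the atrium among the large differences. Of 45 genes of the Wnt, BMP, TGF-beta, Notch and retinoid pathways, 17 were called higher in the atrium and 11 in the ventricle, 9 and 1 beyond 1.5-fold, with a median of 0.13. Sfrp1, a secreted Wnt inhibitor, read 8.41, 8.61 and 8.60 in the atrium and 5.05, 4.71 and 5.17 in the ventricle (3.57, SE 0.18, adjusted p = 2.97e-08), and the related Dkk3 differed by 2.03 (SE 0.07). Bmp5 (1.71) and the retinoic acid synthesis gene Aldh1a2 (1.46) were atrial. The Wnt receptor gene Fzd1 (-1.71, SE 0.10) was the ventricular one beyond 1.5-fold.

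Of 50 growth factor, IGF axis and guidance genes, 22 were called higher in the atrium and 15 in the ventricle, 9 and 4 beyond 1.5-fold, with a median of 0.02. Epha4, an ephrin receptor, read 10.37, 10.06 and 10.22 in the atrium and 5.23, 4.95 and 4.70 in the ventricle, a difference of 5.26 (SE 0.15, adjusted p = 2.41e-10). The imprinted RNA gene H19 differed by 2.78 (SE 0.19) and Igf1 by 0.99 (SE 0.07). Ventricular members were Fgf9 (-2.62, SE 0.14), Fgf16 (-2.55, SE 0.19), Bdnf (-1.40, SE 0.13) and the angiogenic factor gene Vegfa (-1.24, SE 0.16). Both fibroblast growth factors belong to the same subfamily, and their atrial values lay near 4, at 3.61, 3.86 and 3.41 for Fgf9 and 4.03, 4.47 and 3.89 for Fgf16.

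Immediate early genes, which rise within minutes of stimulation, were uneven between the atrial arrays. Egr1 read 9.37, 7.81 and 8.44 in the atrium and 6.92, 6.22 and 6.88 in the ventricle, a difference of 1.87 (SE 0.30, adjusted p = 0.000368). Atf3 read 6.84, 5.24 and 4.40 against 4.17, 3.75 and 3.87, a difference of 1.56 (SE 0.43, adjusted p = 0.0107). Atrial array 1 was the highest for both, and without it the differences were 1.45 for Egr1 and 0.89 for Atf3, both still called. Of 34 immediate early and stress genes, 12 were called higher in the atrium and 7 in the ventricle, 3 and 1 beyond 1.5-fold. The list's median was 0.07 and became -0.03 without that array. Gadd45a, a stress gene, was ventricular and even across arrays (-1.74, SE 0.07).

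Among the largest atrial differences were further genes of varied function, of which Vsnl1 is also on the sinus node list. Atp1b4, a member of the sodium pump beta subunit family, read 8.15, 8.10 and 7.98 in the atrium and 2.37, 2.43 and 2.43 in the ventricle (5.67, SE 0.14, adjusted p = 6.48e-11). Vsnl1 read 7.86, 8.14 and 7.91 against 3.04, 2.93 and 3.13 (4.94, SE 0.19), and Obp3, an odorant binding protein gene, 7.81, 7.81 and 7.97 against 3.04, 3.04 and 2.99 (4.84, SE 0.11). In each of these the ventricular arrays were near the low end of the table, which begins at 2.05. Sytl2 (4.77), a vesicle docking gene, Nap1l5 (4.43), Adamts8 (4.40), a secreted protease gene, and Ggh (4.29), a folate hydrolase gene, complete the 15 largest together with Fam216b (4.10) and the genes above.

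On the ventricular side the 15 largest held, besides the genes above, Aqp7 (-4.59, SE 0.22), a glycerol channel gene, Gpsm1 (-4.28, SE 0.13), a G protein modulator gene, and Cxcl11 (-4.26, SE 0.16), a chemokine gene. Aqp7 read 5.25, 4.66 and 5.46 in the atrium and 9.64, 9.82 and 9.67 in the ventricle. Cxcl11 read 4.52, 4.06 and 4.19 against 8.77, 8.38 and 8.38. Sctr (-3.40), the secretin receptor gene, Smyd2 (-3.20), a lysine methyltransferase gene, Itsn2 (-3.16) and LOC102553868 (-3.41) followed.

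Some of these genes had a mean under 4.01 in 1 chamber and passed the filter only through the other, which fixes their direction, so they are given as a description. Those with a low ventricle and the largest differences were Atp1b4, Vsnl1, Obp3, Upk1b, Fam216b, Rab15 (4.10), Ildr2 (3.78) and Nudt11 (3.64). Those with a low atrium were Irx3, Irx4, Sctr, Acsl6, Pllp (-2.95), C2cd4b (-2.95), Fcer2 (-2.74) and Fgf9. Among all called genes, 114 had a ventricular and 135 an atrial mean under 4.01. Bmp5, Cacna2d3, Ankrd23 and Chrna1 are among them, and the list counts include such genes. The size of such a difference depends on how values near the low end were summarised. The files hold no detection calls, so a value this low was not read as absence. Probe sets without a single gene name made up 225 of the 1112 probe sets beyond 1.5-fold, 20.2%, against 21.8% of all tested. The largest of them read 11.46, 11.48 and 11.46 in the atrium and 4.61, 5.08 and 5.23 in the ventricle (6.49, SE 0.17), and the largest in the ventricle were a pair of probe sets at -3.54 each.

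The chamber difference was then read in the 6 shunt arrays, which share no array with the sham comparison, although both were fitted with 1 estimate of the spread. The filter used the mean over sham and shunt arrays together, so the shunt values took part in choosing the genes. Among the 703 genes beyond 1.5-fold in sham, 55 had a sham ventricular mean and 24 a sham atrial mean under the filter value. For such genes, the same sign in shunt is a description and no independent check. All 703 genes had the same sign in shunt. Of these, 699 were called in shunt and 562 were beyond 1.5-fold there, against 45.6% of all genes called and 6.3% beyond 1.5-fold in shunt (41.9% and 5.52% of probe sets). The 4 that were not called in shunt were Ptn (1.11 in sham, 0.22 in shunt), Slc17a7 (1.38 and 0.28), Crabp2 (1.5 and 0.58) and Nr4a3 (1.57 and 0.24). Over the 5319 genes called in sham, 5209 had the same sign and 4087 of these were called.

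**Figure D5:**
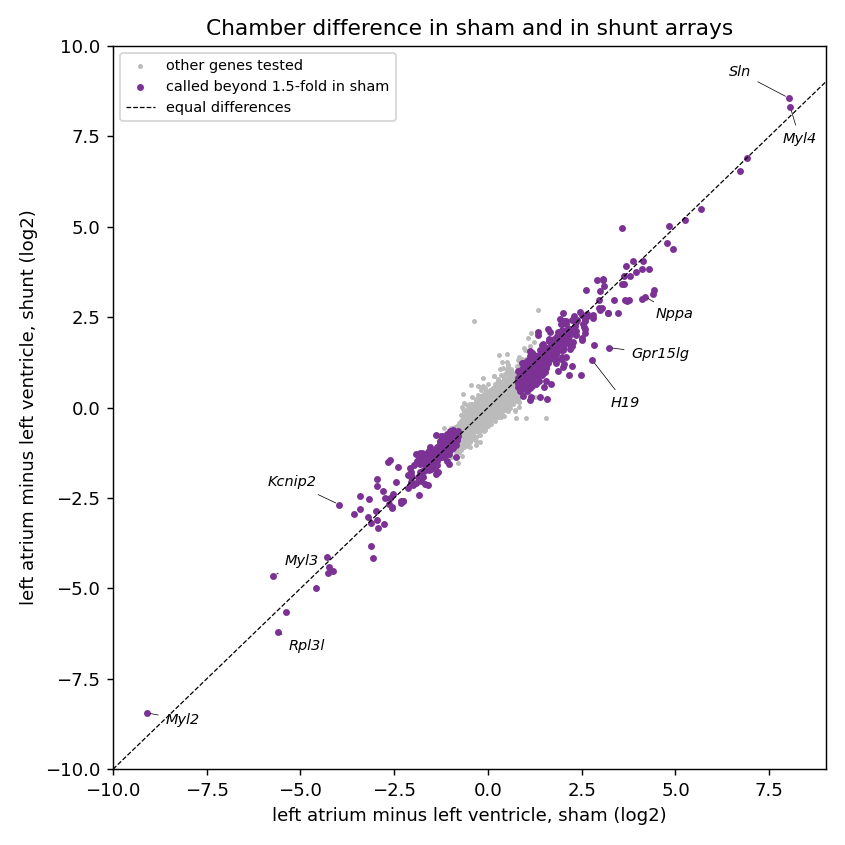
Left atrium minus left ventricle (log2) in the 6 sham arrays (x axis) and in the 6 shunt arrays (y axis) for 10606 genes; purple points are the 703 genes called beyond 1.5-fold in sham and the dashed line marks equal differences. The purple points all have the same sign on both axes, and Kcnip2, Myl3, Nppa, H19 and Gpr15lg lie nearer to 0 in shunt than in sham.

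Several identity genes had a smaller value in shunt, but the test of the change found no gene. Kcnip2 differed by -3.97 in sham and -2.68 in shunt (adjusted p of the change = 0.295), Myl3 by -5.72 and -4.65 (0.46), Nppa by 4.18 and 3.07 (0.644), Acta1 by -2.67 and -1.51 (0.257) and H19 by 2.78 and 1.31 (0.232). Myl4 (8.06 and 8.31), Sln (8.02 and 8.56) and Rpl3l (-5.61 and -6.21) were no smaller in shunt. Of 18625 probe sets, limma called 0 for a chamber difference that changed between the operations (0.0% of those tested), with 1229 (6.6%) at an unadjusted p under 0.05 and a smallest adjusted p of 0.0854. With array weights the count was 11, and without shunt atrial array 3 it was 19, so this count rested partly on that array.

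The smallest adjusted p was that of Gpr15lg, a chemoattractant ligand gene, which read 6.93, 6.88 and 7.0 on the sham atrial and 5.32, 5.51 and 4.94 on the shunt atrial arrays, with ventricular values of 3.85, 3.56 and 3.73 in sham and 3.80, 3.55 and 3.42 in shunt. Its chamber difference was 3.22 in sham and 1.66 in shunt. Next were Klhl40 (1.16 and 0.29), Rasd1 (2.48 and 0.90), Slc7a7 (1.68 and 0.65) and Amot (0.84 and 0.02). In the other direction, toward the atrium in shunt, were Myot (-0.46 and 0.62), LOC102553868 (-3.41 and -2.44), Taok3 (-0.50 and -0.01), Myh13 (-0.42 and 0.09) and S100a4 (0.16 and 0.86), with adjusted p from 0.232 to 0.249.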

How the data were processed

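Left atrial and left ventricular RNA was measured on Affymetrix rat expression arrays, with 3 arrays for each chamber and operation and 1 pool of 2 tissues on each. The deposited values are log2 RMA values, per the submitters' processing notes, and no source used here states their version or whether all arrays were normalised together. No total per array exists for such data, so the number of arrays limits the precision. Values were used as deposited. Probe sets with a mean over the 12 arrays under the 40th percentile (4.01) were left out. limma 3.58.1 in R 4.3.3 was fitted over all 12 arrays with 1 mean per group and no block, and p-values were adjusted by Benjamini-Hochberg over all 18625 probe sets tested. No source says that pools are separate litters or days, so p-values measure the spread between these pools. Probe sets were named from GEO's platform annotation: 20826 had 1 symbol, 436 several and 9780 none, and 20758 symbols were matched by Entrez ID to RefSeq (GRCr8), used for names and promoter sequences. Named genes were the 15 largest called, non-overlapping differences each way, a fixed set of identity genes, members of the 29 lists, the 8 leading 1-chamber genes each way, the 5 strongest changes between operations each way and the 5 genes with the widest probe set disagreement. The comparison and the lists were chosen with earlier results of these data known. The fit was tested on simulated data. Other filters, scalings, weights, priors, blocks and leave-one-out fits were run.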

Additional observations from a re-analysis of the deposited data

Results flagged for a closer look

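Both genes here had 3 atrial sham arrays on one side of the 3 ventricular ones and the shunt arrays the other way round. For Atf3, a stress transcription factor gene, the chamber difference was 1.56 in sham and -0.28 in shunt, 1.84 apart, and limma's test of that change gave an adjusted p of 0.571. Its sham value was highest on atrial array 1. For Myot, the gene of the Z-disc protein myotilin, the differences were -0.46 and 0.62, -1.08 apart, with an adjusted p of 0.232. Neither change passed the test.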

How the results depend on the processing

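In sham, the count of probe sets called, 8782, was 1112 with a minimum fold of 1.5, 5505 after averaging probe sets of 1 gene and 5548 with 1 probe set per gene, the last pair because fewer features were tested. Other settings gave 6750 to 10332, and leaving out 1 array 7340 to 7953. In shunt, 7801 became 1029 with the minimum fold. The test of the change between operations called 0 probe sets, 11 with array weights, 1 with a trended and robust prior, and 0 to 19 without 1 array (19 without shunt atrial array 3); the cause was not tested. List members called numbered 569, and 180 with the minimum fold. Same-numbered sham arrays deviated together only weakly (0.23, 0.26 and 0.07), so the numbers were not taken as pairs. Each atrial sham array correlated best with its own number, a hint from the data. In shunt the same numbers gave -0.24, 0.44 and 0.44, and shunt atrial array 1 correlated best with ventricular array 2 (0.45). With a replicate block within an operation the counts were 9009 in sham, 8057 in shunt, 0 for the change and 577 list members; with a replicate block over all groups they were 8818, 7825, 0 and 564. Of 166 called named genes, 162 kept the call without each sham array, the others being Cpt1a, Kcna5, Myot and Gabbr1 (its probe set at 0.51, not that at 1.73). Gata6, uncalled in the main fit (0.04), was -0.03 with quantile normalisation and -0.01 with cyclic loess. With averaged probe sets it was -0.18 and called higher in the ventricle (adjusted p = 0.0332). Uncalled Gja1 (0.08) was -0.16 with averaged probe sets. Myh6 was called with cyclic loess (0.17), the trended and robust prior (0.09) and averaged probe sets (0.15). Cacna1h (0.08) was called with averaged probe sets (0.52, adjusted p = 3.76e-05). Called Asph (-1.17) was -0.02 with averaged probe sets and lost the call (adjusted p = 0.79). Tnnt2 (-0.09) was called with the trended and robust prior (adjusted p = 0.014). Atp2a2 (0.13) was called under 6 settings: the 60th percentile filter (0.13), cyclic loess (0.21), array weights (0.13), the trended and robust prior (0.13), averaged probe sets (0.26) and 1 probe set per gene (0.13). Of 522 list medians compared, 92 moved by more than the spread between arrays and 12 had the other sign. With 3 pools a group, the smallest difference called in a gene was 0.14.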
